A study of Mus musculus with 4 samples.

Results

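Interferon-stimulated genes were followed in group 2 innate lymphoid cells (ILC2s), lymphocytes of barrier tissues that make type 2 cytokines without an antigen receptor. The genes were taken by symbol from a list of 39 known interferon response genes, and no value entered the rule itself. Of these, 38 were found by NCBI gene identifier among the 27179 genes counted, and Ifi206 was not analysed here. The cells came from the colon of C57BL/6J mice, 1 mouse per library, and 2 mice had eaten control food and 2 high-fiber food. The labels give no age, sort gate, cell number, kind of fiber or time on the diet. The control libraries held 30406730 and 20253987 counts in total, the high-fiber libraries 29263068 and 20750263. The 15 ILC2 marker genes checked, among them Gata3, Il1rl1 and Il5, all had counts and entered the test.

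Interferons are secreted proteins that warn cells of infection. Type I interferons bind the receptor made of IFNAR1 and IFNAR2, and the kinases JAK1 and TYK2 then activate STAT proteins, among them STAT2, which with IRF9 bind a DNA motif called the interferon-stimulated response element (ISRE). Interferon gamma acts through IFNGR1, IFNGR2, JAK1 and JAK2, and its signal reaches the gamma-activated sequence (GAS). The genes switched on in this way encode sensors of viral nucleic acid, proteins that block viral RNA or membranes, and GTPases that attack pathogen-containing vacuoles. Lymphocytes also hold a low level of many of these transcripts without infection, called tonic expression. Most laboratory mouse strains carry defective Mx1 and Mx2 genes, and the annotation lists both as transcribed pseudogenes.

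The motifs are shown here because they are the known DNA sites of these pathways. Windows of 250 bases before annotated start sites came from RefSeq on GRCm38.p6 and were found for 29 of the 39 genes. The ISRE, searched on both strands as GAAA, any 2 bases and GAAA again, occurred in 17 of these 29 genes (58.6%) and in 3.46% of all 27025 genes with a window. The GAS, searched as TTCNNNGAA, which reads the same on both strands, occurred in 7 of 29 (24.1%) and in 8.13% of all genes. A match describes these letters and does not show that a factor bound there. In the stretches below, 5′ to 3′ on the strand of the gene, capitals mark the ISRE matches, or the GAS match for Irf1.
Isg15, chr4:156200853-156200918, minus strand: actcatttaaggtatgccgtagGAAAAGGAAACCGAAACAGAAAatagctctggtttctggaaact
Ifit1, chr19:34640763-34640835, plus strand: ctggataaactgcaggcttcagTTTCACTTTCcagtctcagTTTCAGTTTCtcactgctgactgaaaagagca
Rsad2, chr12:26456541-26456594, minus strand: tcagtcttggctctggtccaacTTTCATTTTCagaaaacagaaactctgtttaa
Bst2, chr8:71537565-71537624, minus strand: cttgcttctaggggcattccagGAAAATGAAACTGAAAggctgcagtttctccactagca
Stat2, chr10:128270254-128270307, plus strand: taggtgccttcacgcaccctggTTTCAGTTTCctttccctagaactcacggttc
Gbp7, chr3:142530261-142530314, plus strand: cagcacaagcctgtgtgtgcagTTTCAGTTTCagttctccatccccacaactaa
Irf1, chr11:53769902-53769954, plus strand: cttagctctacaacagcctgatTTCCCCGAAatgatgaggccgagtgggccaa
Isg15 held 3 overlapping ISRE matches, Bst2 2 overlapping ones and Ifit1 2 separate ones. The GAS match of Bst2 overlapped its ISRE matches. Gbp7, Oas1a, Bst2 and Igtp held both motifs, while Irf1, Isg20 and Ifit2 held a GAS match and no ISRE match in the window.

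**Figure D1:**
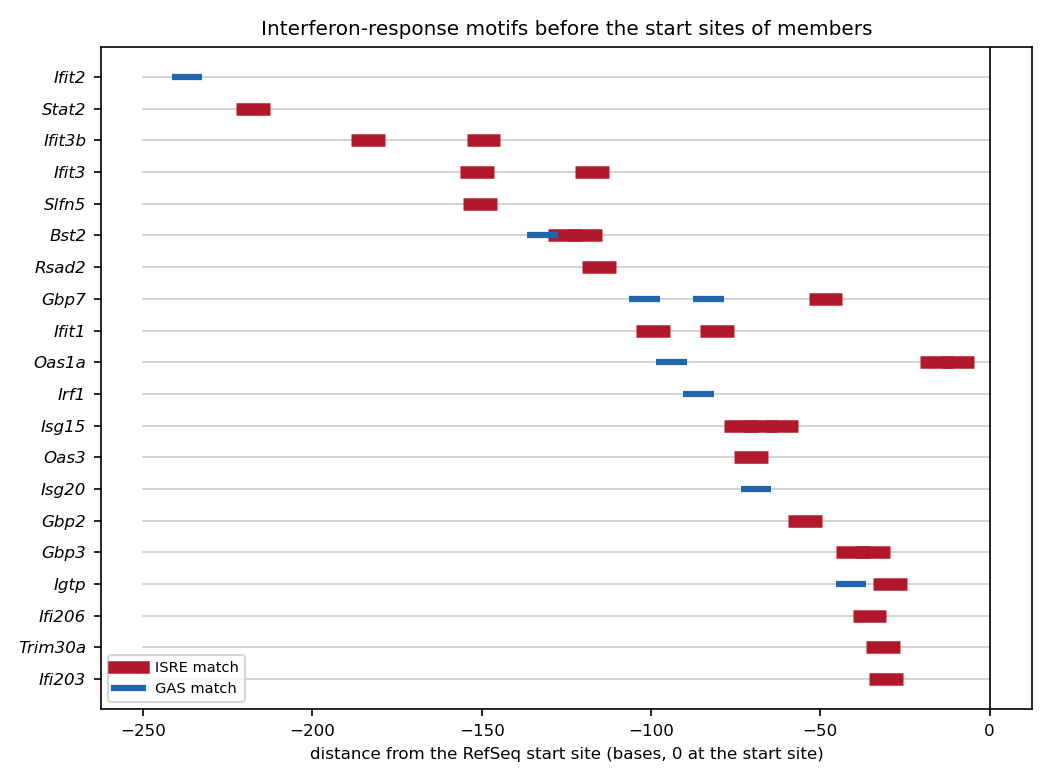
Positions of ISRE matches (thick red bars) and GAS matches (thin blue bars) in the 250 bases before RefSeq start sites, 1 row per gene with a match, the x axis giving the distance from the start site in bases. The ISRE was present in 17 genes, from 1 to 3 matches each, and lay between base -222 in Stat2 and base -5 in Oas1a.

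At baseline the genes fell into a group with counts in every library and a group that was at 0 in some libraries. Levels are given as CPM, the count scaled to a common library size, or as CPM per kilobase of exon where genes are compared with each other. Of the 38 genes, 31 passed the filter on low counts and were tested for diet. Of the 31, 22 had counts in all 4 libraries and 9 were at 0 in at least 1. The median level of the 31 was 6.09 CPM per kilobase, beside 5.18 over the 10978 tested genes with an exon length. A higher level than that median was found for 17 of them, and 8 lay above the 75th percentile of all tested genes. A gene that passed the filter had to reach its cutoff in at least 2 libraries, of the same or of different diets, so these levels leave out the weakest genes.

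The highest level per kilobase belonged to Irf1, a transcription factor induced by interferon gamma, at 51.1 CPM per kilobase over the 4 libraries, above 90.2% of tested genes. Bst2 (tetherin), which holds budding virus at the cell surface, followed at 46.0, then the GTPases Igtp at 39.0, Ifi47 at 30.3, Gbp2 at 26.9 and Gbp7 at 24.6. The RNA exonuclease Isg20 was at 19.8, the ubiquitin-like modifier Isg15 at 18.1, the RNA sensor Ddx58 (RIG-I) at 10.1 and Irf7, the factor that amplifies type I interferon, at 9.90. On this scale 4 of the first 6 genes were interferon-inducible GTPases. By diet, Irf1 was first in control mice, at 62.2 CPM per kilobase before Bst2 at 36.3. In high-fiber mice Bst2 at 55.7 and Igtp at 42.4 stood above Irf1 at 40.1. The IFIT and OAS genes and Mx2 stood lower, from 2.48 CPM per kilobase for Ifit1 and 1.44 for Oas1a to 0.549 for Mx2, 0.506 for Ifit2, 0.360 for Oas3 and 0.349 for Oasl2. Oas2, Oasl1, Mx1 and Ifit3b had 0 counts in all libraries. A 0 allows up to 3 counts per library, which is 0.0993 to 0.147 CPM, and covers counting error only. Ifit3 and Ifit3b are near-identical copies, so their reads may be shared or lost.

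**Figure D2:**
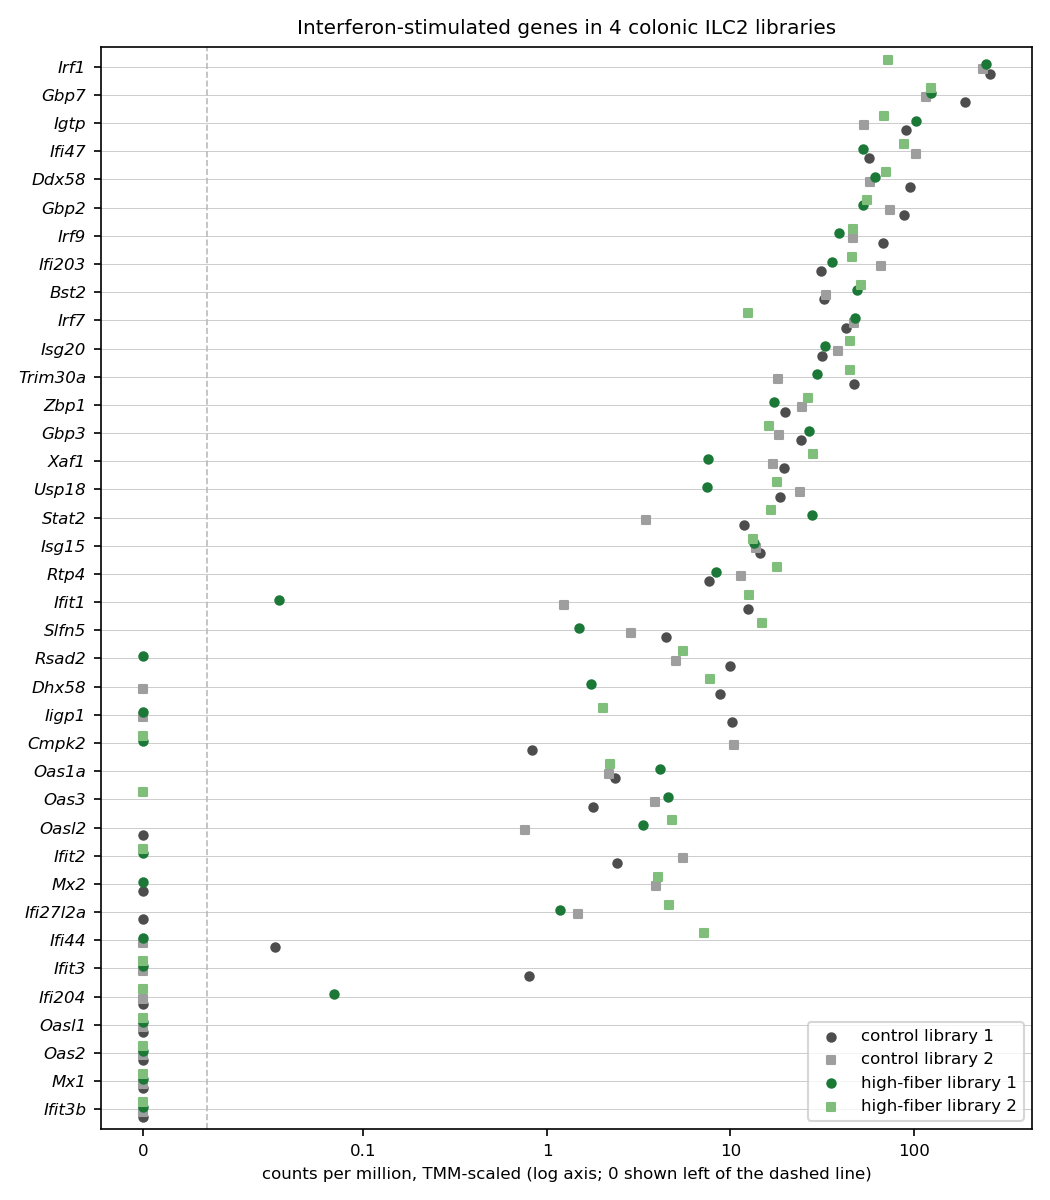
Level of 38 interferon-stimulated genes in each of the 4 libraries, in CPM on a log axis with values of 0 left of the dashed line, ordered by mean. High-fiber library 2 lies below the other libraries for Irf1, the top gene, and 11 genes were at 0 in 1 to 3 libraries and above 10 counts in another.

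A count of 0 in 1 library beside more than 10 counts in another was found for 11 of the 38 genes. Among tested genes it was 9 of 31 (29%), compared with 9.15% of all 11841 tested genes. All 9 lay at a mean of 1 to 10 CPM, where they were 9 of 12 (75%) beside 19.6% of all tested genes in that range. Of the 11, 5 were at 0 in 1 library, 5 in 2 libraries and 1, Ifit3, in 3. In control libraries 1 and 2, 8 and 9 of the 38 genes were at 0, and in high-fiber libraries 1 and 2, 11 and 9. These counts include Oas2, Oasl1, Mx1 and Ifit3b, which were at 0 in every library. In both diets library 1 was the deeper, and the part of depth in the zeros was not tested. In bulk samples fewer expressing cells and less RNA per cell cannot be told apart.

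Mx2 had 0 counts in control library 1, 82 in control library 2, 0 in high-fiber library 1 and 82 in high-fiber library 2. The difference lay between the libraries within each diet, where mouse and library cannot be told apart. Iigp1, a GTPase of vacuole defence, had 309, 0, 0 and 41 counts in the same order. Dhx58 (LGP2), a partner of RIG-I, had 264, 0, 50 and 158 counts. The 2 diets overlapped for each of these 3 genes. Rsad2 (viperin), which makes a chain-terminating nucleotide, had 300, 106, 0 and 112 counts. Oas3, which makes the second messenger that activates RNase L, had 54, 81, 131 and 0 counts. Ifi27l2a had 0, 31, 34 and 94 counts, and its gene overlaps Ifi27, which had 3333 to 3951 counts, so its reads are uncertain. Ifi44 had 1, 0, 0 and 146 counts and Ifit3 had 24, 0, 0 and 0, and both stayed below the filter. Ifit1, a protein that binds viral RNA caps, had 377, 26, 1 and 256 counts, high in 1 mouse of each diet. Ifi204, a DNA sensor, had 2 counts in all.

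The spread between the 2 mice of a diet was taken as the absolute log2 ratio of their libraries. Its median over the 31 genes was 0.72 on the control diet and 0.74 on the high-fiber diet, beside 0.42 and 0.57 over all tested genes. For the 22 genes with counts in every library it was 0.47 and 0.67, beside 0.38 and 0.52 over the 10758 tested genes with counts in every library. On the control diet 14 of 31 genes were higher in library 2, and on the high-fiber diet 21 of 31, while 48.9% and 47.9% of all tested genes were. High-fiber library 2 held the highest value of 10 of the 31 genes, as did control library 1, and the lowest of 5; over all tested genes it was highest in 28.3% and lowest in 31.8%. These are descriptions of single pairs of mice and carry no test.

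High-fiber library 2 stood apart for Irf1 and Irf7, not for Irf9. Irf1 stood at 258 and 236 CPM in the control mice, against 247 and 72.1 CPM in the high-fiber mice. Irf7 was at 42.5, 47.0, 47.5 and 12.5 CPM in that order. Both were alike in 3 libraries and lower in the fourth. In the other direction Slfn5, a member of the schlafen family, was at 4.44, 2.86, 1.49 and 14.8 CPM, and Xaf1, a promoter of apoptosis, at 19.5, 17.0, 7.52 and 28.0 CPM, with the highest value of each in the same library. Genes that differed little between any 2 libraries included Isg15, at 14.4, 13.8, 13.4 and 13.3 CPM. Immediate early genes, which cell isolation also induces, summed to 42537 and 36989 CPM in the control libraries. In the high-fiber libraries they summed to 24159 and 18092 CPM, lowest in the library where Irf1 was lowest. The sum was also lower than in the control mice in high-fiber library 1, where Irf1 was at 247 CPM. From high-fiber library 1 to 2 Junb fell from 9650 to 4080 CPM, while Dusp1 rose from 5012 to 7392 CPM. Fosb, Egr2 and Atf3 rose too, and the rest of the 15 listed genes fell. By diet, 14 of the 15 had negative log2 fold changes, and 9 were lower at an unadjusted p under 0.05 (4.1% of all genes). By edgeR 0 of them passed, and DESeq2 called 8 lower (0.635% of all genes). The part of the immediate early genes in the values of Irf1 was not tested.

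**Figure D3:**
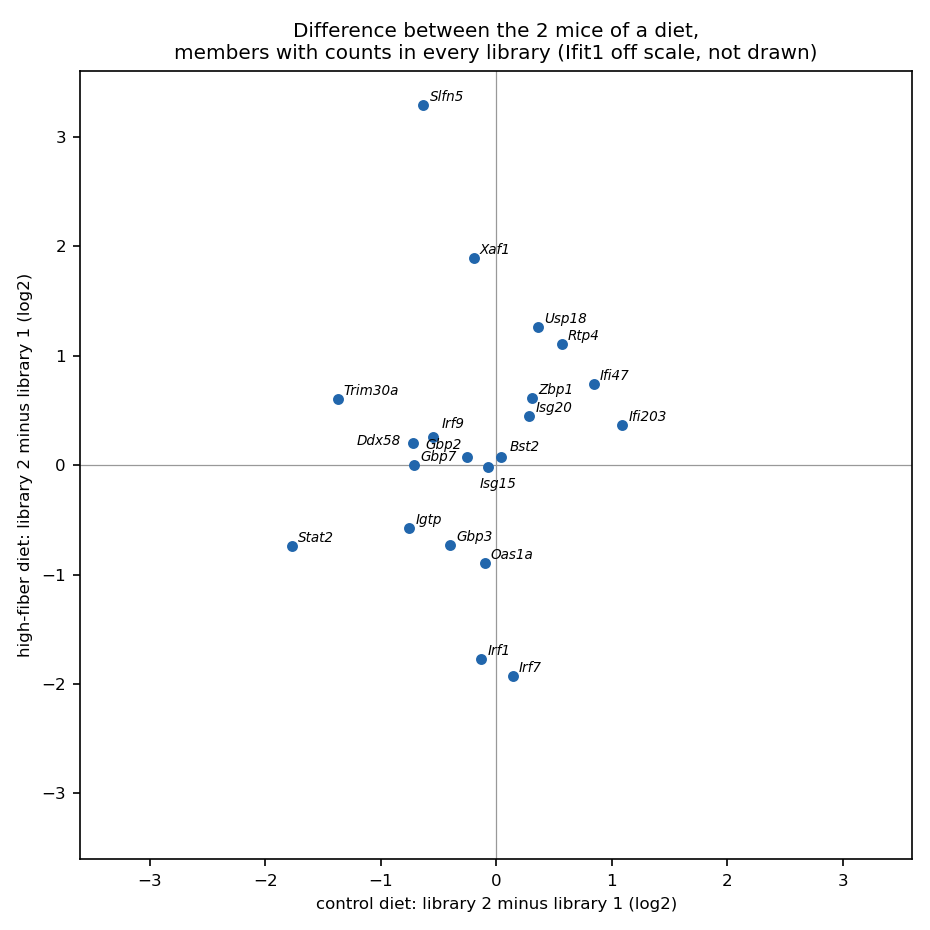
Difference between the 2 mice of the control diet (x axis, log2 of library 2 over library 1) and of the high-fiber diet (y axis, same ratio), 1 point per gene with counts in every library, Ifit1 not drawn. Irf1 and Irf7 lie low and Slfn5 and Xaf1 high on the y axis while all 4 lie between -0.63 and 0.14 on the x axis.

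The diet comparison asked whether the 2 diets left different levels of these transcripts in the cells. None of the 31 tested genes passed in either direction by the quasi-likelihood test of edgeR, adjusted over 11841 genes after Benjamini and Hochberg, where 0.0338% of all genes were higher and 0% lower. The smallest adjusted p was 0.447. At an unadjusted p under 0.05, 1 gene, Oasl2, was higher (background 4.7%) and 2 genes, Cmpk2 and Ifit2, were lower (background 4.1%). DESeq2 called 0 of the 32 genes with an adjusted p higher (background 1.28%) and 2, Cmpk2 and Ifit2, lower (background 0.635%). limma-voom called 0. The median log2 fold change of the 31 was -0.12, beside -0.02 over all tested genes, with 12 positive and 19 negative values. It became 0.05 without control library 1 and -0.33 without high-fiber library 2. Both high-fiber libraries lay above both control libraries for 3 genes (background 18.5%) and below them for 5 (background 19.6%), which for 31 genes is near or under the background. With 2 mice a diet, the edgeR fit had 2 residual degrees of freedom per gene, and its test also draws on the variance of the other genes.

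Cmpk2, a nucleotide kinase beside Rsad2 on chromosome 12, had 25 and 219 counts in control libraries 1 and 2 and 0 in both high-fiber libraries. Set against 3 counts over the high-fiber group it was at least 78.2-fold lower on the high-fiber diet (edgeR adjusted p = 0.447, DESeq2 adjusted p = 0.00313). From control library 1 alone the bound was 13.6-fold and from control library 2 alone 171-fold, a choice made after seeing the data. Ifit2, an RNA-binding protein of the IFIT cluster on chromosome 19, had 73 and 116 counts on the control diet and 0 in both high-fiber libraries. It was at least 60.6-fold lower (edgeR adjusted p = 0.447, DESeq2 adjusted p = 0.0053), or 39.7-fold and 90.7-fold from control libraries 1 and 2 alone. These bounds leave out the spread between mice and count PCR copies as molecules. Oasl2, an OAS-like protein, went the other way, with 0 and 16 counts in control mice against 96 and 98 in high-fiber mice (log2 fold change 3.64 ± 1.31 (SE), edgeR adjusted p = 0.468, DESeq2 adjusted p = 0.609), and the log2 value was 2.38 without control library 1 and 9.72 without control library 2. The groups did not overlap for these 3 genes, beside 18.5% of all tested genes above and 19.6% below. Cmpk2 and Ifit2 could pass the filter only through the 2 control libraries, where they were high. Their lack of overlap was therefore fixed by the filter and adds no support. Rsad2, the neighbour of Cmpk2, was not at 0 in high-fiber library 2, where Cmpk2 was, and its log2 fold change was -1.74 ± 1.12.

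Among the signal transducers, Stat2 was at 11.9 and 3.48 CPM in control mice, against 27.8 and 16.6 CPM in high-fiber mice. Both high-fiber values lay above both control values, with a log2 fold change of 1.46 ± 0.63 (edgeR adjusted p = 0.593), which was 0.92 without control library 2 and 2.70 without control library 1. Irf9, the DNA-binding partner of STAT2, was at 67.7, 46.3, 38.9 and 46.6 CPM (-0.43 ± 0.32), and the groups overlapped. Irf1 stood at -0.62 ± 0.51 and Irf7 at -0.52 ± 0.56, and without high-fiber library 2 at -0.01 and 0.08. Isg15 (-0.08 ± 0.47) and Usp18, the protease that removes ISG15 and dampens the receptor (-0.80 ± 0.55), did not overlap between the diets and were lower on fiber, although the 4 values of Isg15 lay within 13.3 and 14.4 CPM.

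The 4 tested sensors had log2 fold changes from -0.24 to -0.02, with a wide standard error for Dhx58. Ddx58 was at 94.6 and 57.3 CPM in control mice, against 61.3 and 70.8 CPM in high-fiber mice (-0.22 ± 0.32). Ifi203, a member of the cluster of DNA-sensing genes on chromosome 1 whose copies may share reads, stood at -0.24 ± 0.43. Zbp1, which senses Z-form nucleic acid, stood at -0.02 ± 0.43 and Dhx58 at -0.21 ± 1.22. The sign of Zbp1 turned with DESeq2, and that of Dhx58 with DESeq2, limma-voom and the older edgeR fit.

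Among the membrane and other effectors, Bst2 had the tightest values, at 32.3 and 33.3 CPM in control mice, against 49.0 and 51.6 CPM in high-fiber mice. Its mean was 32.8 ± 0.689 and 50.3 ± 1.81 CPM (SD, n = 2 each) with a log2 fold change of 0.62 ± 0.30 (edgeR adjusted p = 0.645). The difference was larger than the spread within either diet but did not pass. Isg20 was at 31.5, 38.4, 32.6 and 44.6 CPM (0.14 ± 0.34). The log2 fold change of Trim30a, a ubiquitin ligase, was 0.14, that of Rtp4, a Golgi chaperone, 0.44, that of Slfn5 0.96 and that of Xaf1 -0.12. Their groups overlapped. Oas1a stood at 0.53 ± 0.79.

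Of the 6 interferon-inducible GTPases, 2 had positive and 4 negative log2 fold changes. Gbp2, a guanylate-binding protein, was at 88.6 and 74.4 CPM in control mice, against 52.7 and 55.4 CPM in high-fiber mice. The groups did not overlap, and the log2 fold change was -0.60 ± 0.26 (edgeR adjusted p = 0.601). Gbp7 was at 189, 116, 124 and 124 CPM (-0.31 ± 0.29), with 1 high control mouse. Igtp was at 90.2, 53.6, 103 and 68.9 CPM (0.25 ± 0.35) and Ifi47 at 57.1, 103, 52.5 and 87.6 CPM (-0.19 ± 0.40). For both, the mice of a diet differed by more than the diets did. Gbp3 stood at 0.02 ± 0.44, with a negative sign without scaling factors and with limma-voom. The Gbp genes form a cluster of similar copies on chromosome 3, so reads could be split among them.

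**Figure D4:**
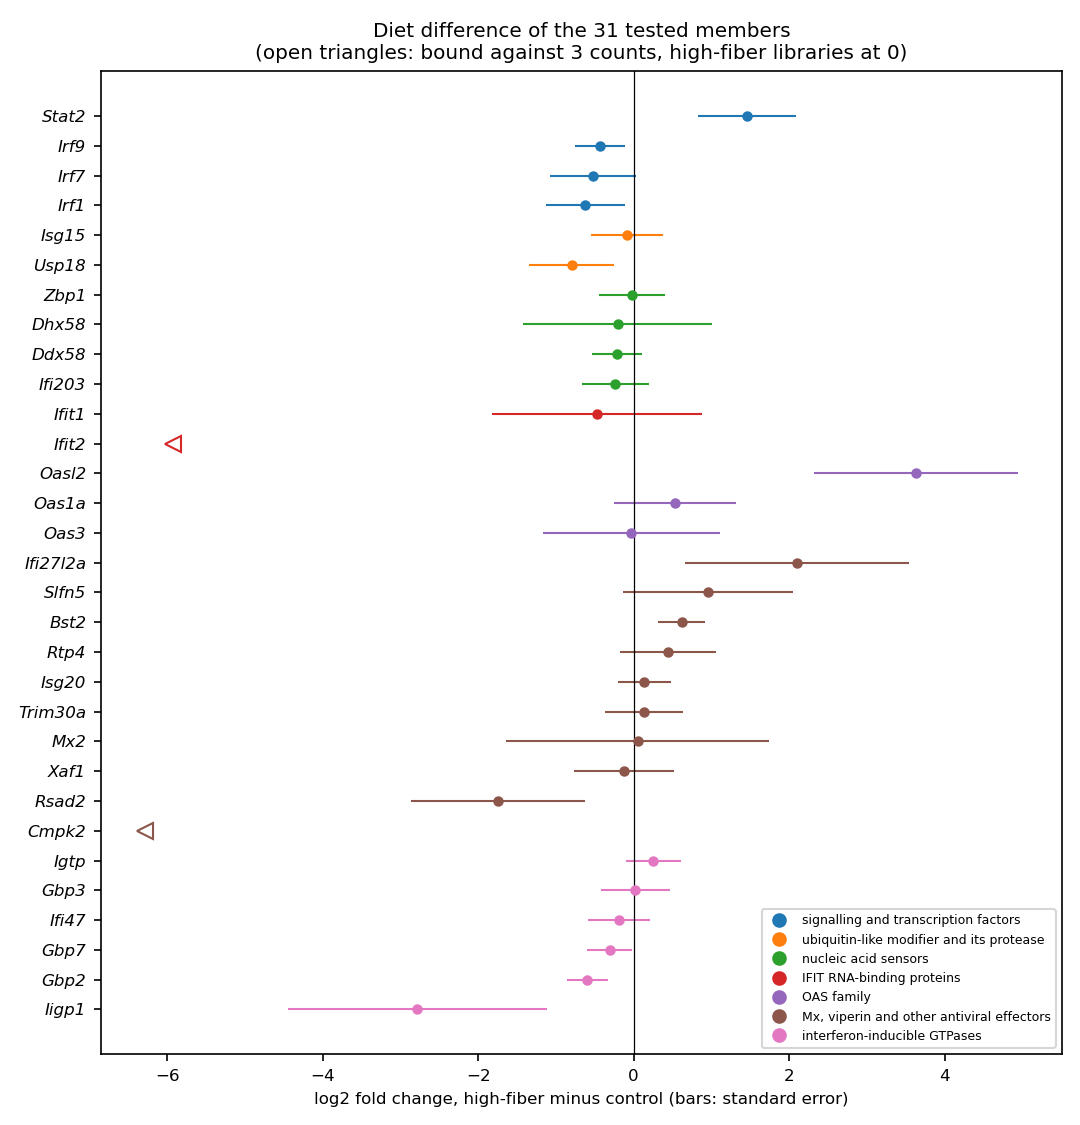
Log2 fold change (high-fiber minus control) of the 31 tested genes, coloured by role, with bars for the standard error. Open triangles mark the bounds of Cmpk2 and Ifit2 against 3 counts; most of the other points lie within 1 of 0, and none of the 31 passed edgeR's adjusted test.

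The rest of the pathway was described from lists of ligands, receptors, signalling factors and further interferon-stimulated genes. Of 11 interferon genes, Ifnb1, the 4 alpha interferon genes listed, Ifne, Ifnl2 and Ifnl3 had 0 counts in all libraries, and Ifnk and Ifnz had 6 and 4 counts together. Only Ifng, the type II interferon, was tested: it was at 19.2 and 25.7 CPM in control mice, against 7.69 and 7.51 CPM in high-fiber mice. Its log2 fold change was -1.55 ± 0.50, with an unadjusted p of 0.0183 and an adjusted p of 0.456 by edgeR, and DESeq2 gave an adjusted p of 0.152.

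Of 8 tested receptor and kinase genes 0 passed by edgeR, and 2 were higher at an unadjusted p under 0.05 (4.7% of all genes). Jak2, the kinase of the interferon gamma receptor and of other cytokine receptors, was at 289 and 194 CPM in control mice, against 511 and 499.5 CPM in high-fiber mice (1.06 ± 0.25, edgeR adjusted p = 0.447). DESeq2 called it higher (adjusted p = 0.0098). Ifngr1, the ligand-binding chain, was at 1656, 1244, 2079 and 2497 CPM (0.66 ± 0.24, edgeR adjusted p = 0.499). Ifnar1 stood at 0.59 ± 0.26, Ifnar2 at -0.15 ± 0.27 and Jak1 at -0.10 ± 0.31, and Ifnlr1, the type III receptor, had 0 counts. Of 13 tested further signalling factors 0 passed and 0 lay at an unadjusted p under 0.05, with the inhibitor Socs1 at -0.32 ± 0.23. Of 12 tested genes of pattern recognition 0 passed, and 1, the adaptor Myd88 (-0.75 ± 0.27), was lower at an unadjusted p under 0.05 (4.1% of all genes).

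Of 46 tested interferon-stimulated genes outside the 39, 0 passed by edgeR. At an unadjusted p under 0.05, 2 of them were higher (4.7% of all genes) and 4 lower (4.1%), and the median log2 fold change was -0.26. High-fiber libraries lay below control libraries without overlap for 19 of the 46 (19.6% of all genes) and above for 3 (18.5%). The 4 lower genes were the GTPases Irgm1, Gbp9 and Gbp4 and the ubiquitin ligase Dtx3l. Irgm1, which controls autophagy of vacuoles, was at 98.1 and 96.8 CPM in control mice, against 33.4 and 45.5 CPM in high-fiber mice (-1.32 ± 0.28, edgeR adjusted p = 0.447, DESeq2 adjusted p = 0.0123). Gbp9 was at 87.1, 79.5, 39.0 and 38.5 CPM (-1.11 ± 0.27, DESeq2 adjusted p = 0.0336) and Gbp4 at 326, 329, 228 and 226 CPM (-0.53 ± 0.20). Dtx3l stood at -1.31 ± 0.51. Higher were Ifi207, at 0.662, 0.381, 3.98 and 15.5 CPM (4.04 ± 1.19, DESeq2 adjusted p = 0.00967), and Ifitm2 (1.85 ± 0.60), both genes of clusters whose copies may share reads. The most abundant per kilobase were Ly6e, at 4106 ± 68.8 and 3661 ± 115 CPM (SD, n = 2 each), Ifi35 (0.10 ± 0.22) and Slfn2 (-0.09 ± 0.44), the last 2 given as log2 fold changes.

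Markers of other cells that express these genes were present. Plasmacytoid dendritic cells, known for type I interferon and for BST2, were checked by 7 genes: Klk1 and Cox6a2 had 0 counts, Siglech reached at most 0.196 CPM, and the summed level was 31.9 to 37.2 CPM in control mice, against 16.8 to 31.8 CPM in high-fiber mice. Its main parts were Tcf4, at 17.7, 17.3, 11.9 and 23.7 CPM, and Ccr9, at 14.8, 14.5, 4.95 and 7.95 CPM. The 17 macrophage, monocyte and dendritic cell markers summed to 317 to 418 CPM in control mice, against 466 to 488 CPM in high-fiber mice. Itgax was at 0 and Csf1r at 4.76 CPM or less. Of 12 tested members 0 had an unadjusted p under 0.05, with 8 positive and 4 negative log2 fold changes. The diet mean of Apoe rose from 120 CPM in control mice to 197 CPM in high-fiber mice, that of Lyz2 from 48.8 to 88.9 CPM. Going the other way, the mean of Xcr1 fell from 44.6 to 34.5 CPM, that of Zbtb46 from 84.6 to 65.9 CPM. The 12 B and plasma cell markers summed to 374 to 560 CPM and to 830 to 1646 CPM, and Pax5 and Tnfrsf17 were at 0. Of 6 tested members 4 (Igkc, Igha, Jchain and Cd79b) were higher at an unadjusted p under 0.05, beside 4.7% of all genes. Xbp1 alone was at 404, 335, 486 and 420 CPM. NK and ILC1 markers, cells that make interferon gamma, summed to 306 to 365 CPM and to 235 to 258 CPM. Klrk1 alone was at 262, 337, 210 and 248 CPM, while Eomes and Klra1 were at 0 and Tbx21 at 16.5, 2.29, 1.32 and 0 CPM. T cell markers summed to 1371 to 1557 CPM and to 1239 to 1467 CPM, with Cd8a and Cd8b1 at 0. The largest parts were Trbc1, at 580, 638, 460 and 525 CPM, and Lat, at 437, 478, 328 and 456 CPM. Cd3e was at 13.2 CPM or less and Trac at 14.9 CPM or less. At an unadjusted p under 0.05, 1 of 8 tested T cell markers was higher (4.7% of all genes) and 1 lower (4.1%). The higher one, Cd3g, was at 143, 171, 244 and 289 CPM. The lower one, Themis, was at 12.0, 15.9, 1.8 and 2.1 CPM (DESeq2 adjusted p = 0.00967). Of the 8 log2 fold changes 7 were negative, and only that of Cd3g was positive. The part of these cells in the values above was not tested.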

How the data were processed

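The authors deposited read counts per NCBI gene and library, whole numbers with no normalization, and 0 value columns lacked a sample. The submitters' processing notes list CASAVA 1.8.2, STAR 2.3.0 and mm10 and give no roles for them. Per the labels' protocols, libraries were made with a low-input SMARTer kit. For the counting program and strand setting, the sources used here give nothing. Symbols came from RefSeq (GRCm38.p6), and exon lengths, the union of a gene's exons, from GENCODE M21.

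The test used edgeR 4.0.16 under R 4.3.3: filterByExpr (11841 of 15425 genes with a count), TMM, diet as the 1 term, glmQLFit with legacy=FALSE, glmQLFTest and Benjamini-Hochberg adjustment at 0.05. Standard errors came from the fold change and F. Ratios between libraries used a prior count of 0.5. The fit was tested on simulated data. The members and lists were chosen with earlier results of these data known. Values per library are given for members at an unadjusted p under 0.05, the 10 highest per kilobase, the 3 most variable per diet, those with a 0 beside more than 10 counts, and the STAT and IRF genes; Slfn5, Xaf1 and Ifi204 were added after their values were seen. Of the pathway lists, genes at an unadjusted p under 0.05 and some of the most abundant are named; of the marker lists, only some of these are. Ifnar1, Ifnar2, Fosb, Egr2, Atf3, the markers at or near 0, the genes named for their part in a sum, Cd3e and Trac were added in the same way. Alternatives were other scalings and filters, a replicate block, each library left out, a threshold of 0.1, robust fitting, the older edgeR fit (legacy=TRUE, the default of this version), limma-voom from limma 3.58.1, and DESeq2 1.42.0. 1 gene of the signalling list is counted in its list and not reported here by name.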

Additional observations from a re-analysis of the deposited data

How the results depend on the processing

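Of the 11841 genes, the number higher by edgeR, 4 with the settings reported, was 0 without a filter, with limma-voom, with legacy=TRUE and with the replicate block, 8 with at least 5 CPM in 2 libraries (1 lower) and 159 with DESeq2 (79 lower). It ranged from 0 to 1 with a library left out. None of the tested members passed under any edgeR or limma-voom setting, and DESeq2 called 2 lower (Cmpk2 at -9.52 and Ifit2 at -9.02 on its log2 scale). At an unadjusted p under 0.05, higher members numbered 2 with DESeq2, 2 with the replicate block and 0 with legacy=TRUE, and 0 to 2 with a library left out; lower members numbered 0 with at least 5 CPM, which drops Cmpk2 and Ifit2, 1 with limma-voom, and 2 to 4 with a library left out. The library numbers show no pairing in the labels (correlation of same-numbered deviations 0.041). Signs turned in 6 of 301 other refits: Dhx58 (0.14 with DESeq2, 2.21 with limma-voom, 0.11 with legacy=TRUE), Gbp3 (-0.014 without scaling factors, -0.00022 with limma-voom) and Zbp1 (0.011 with DESeq2). The cause was not tested.

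With a library left out, signs turned for 19 members, whose log2 fold changes ranged from -0.52 to 0.20 (Ddx58), -1.53 to 9.68 (Dhx58), -0.39 to 0.31 (Gbp3), -0.62 to 0.10 (Gbp7), -0.70 to 0.39 (Ifi203), -0.59 to 0.29 (Ifi47), -7.60 to 2.17 (Ifit1), -0.068 to 0.69 (Igtp), -10.29 to 7.32 (Iigp1), -1.81 to 0.084 (Irf7), -0.10 to 0.39 (Isg20), -8.45 to 8.51 (Mx2), -0.022 to 0.85 (Oas1a), -8.98 to 0.77 (Oas3), -0.16 to 0.98 (Rtp4), -1.34 to 2.00 (Slfn5), -0.35 to 1.03 (Trim30a), -1.29 to 0.64 (Xaf1) and -0.34 to 0.31 (Zbp1). Here the lone library is assumed to vary like the others. Fitted values beyond 5 in size belong to fits with 0 counts, or for Ifit1 1 count, in a group. Of members whose sign held, Oasl2 ranged from 2.38 to 9.72, Rsad2 from -10.71 to -0.48, Stat2 from 0.92 to 2.70 and Usp18 from -1.50 to -0.21.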

Other observations

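Chemokines and antigen-processing genes induced by interferon were counted beside the members. Of 13 tested antigen-processing genes 0 passed by edgeR and 1, Tapbp, which loads peptide on MHC class I, was lower at an unadjusted p under 0.05 (480 ± 108 CPM in control mice against 286 ± 90.0 CPM in high-fiber mice, mean ± SD, n = 2, edgeR adjusted p = 0.534). B2m, the light chain of MHC class I, was at 4763 and 5629 CPM in control mice, against 5491 and 6261 CPM in high-fiber mice. Of 5 tested chemokine genes 0 passed by edgeR, 4 had positive log2 fold changes, and 2, Cxcl11 and Ccl5, were higher at an unadjusted p under 0.05 (4.7% of all genes). Ccl5, a T cell attractant, was at 1.62, 0.572, 4.36 and 11.0 CPM. Cxcl10, the CXCR3 ligand, was at 39.0, 73.0, 46.7 and 48.1 CPM, and Cxcl9 had 0 counts. Cxcl11 had 0 counts in both control libraries and 0.623 and 1.96 CPM in the high-fiber libraries. It therefore passed the filter on low counts only through the high-fiber libraries. Its direction was fixed by the filter, and its place among the 2 higher genes adds no support.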
